A study of Mus musculus with 9 samples.

Results

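The genes described here encode laminins, the integrins and dystroglycan that bind them, and the hemidesmosome that anchors epithelial cells to them. They were chosen by name: 38 gene symbols were listed, and a gene was taken where a probe set of the array carried that symbol alone, with the probe set of highest mean standing for the gene. A probe set was found for 37 of the 38, all 37 passed the filter on low values, and they stand among 17478 genes tested. Itga10 is not analysed here.

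Expression was measured on Affymetrix Mouse Gene 2.0 ST arrays in frozen mammary tissue of 9 female FVB mice, with 1 array per mouse and 3 mice per group. The question posed by the title of the series is how metastatic differ from non-metastatic mammary tumours of MMTV-Wnt1 mice, in which the promoter of the mouse mammary tumour virus drives Wnt1, a secreted signalling protein. Normal glands came from littermates labelled Wild-type Wnt1, aged 533 to 556 days, and all 6 tumours from mice labelled Wnt1+/-, which were aged 222 to 354 days in the non-metastatic group and 281 to 300 days in the metastatic group. A tumour was taken once it measured 20 mm. All mice, of either genotype, drank sucrose solution with doxycycline. The normal glands were older than every tumour and differed from all tumours in genotype. Age, genotype and tumour status therefore cannot be told apart in any comparison with normal gland.

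Laminins are trimers of an alpha, a beta and a gamma chain that form the sheet of the basement membrane, the thin matrix beneath epithelium and around muscle, fat and vessels. Nidogens and perlecan tie this sheet to the collagen IV network, and cells hold on to it through integrins, which are pairs of an alpha and a beta chain, and through dystroglycan. In the mammary gland, the basal (myoepithelial) layer touches the basement membrane and holds it with hemidesmosomes, junctions built on the integrin of the alpha6 and beta4 chains and linked to keratin filaments.

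Values are on the log2 scale, where a difference of 1 is a doubling, and they compare arrays for 1 gene but not the levels of different genes. A member was called where limma gave an adjusted p under 0.05 (two-sided, Benjamini-Hochberg over all 17478 genes), and only called genes are said to have risen or fallen. Errors of levels are SDs over the 3 arrays of a group and errors of differences are limma's SEs. Arrays have no read depth, and with 3 per group their number limits the precision.

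Among the normal glands, number 2 was unlike the rest. A marker score is the average deviation of the listed genes from their own means across the arrays, and that of 11 skeletal muscle markers was 2.92 there, against -0.73 and -0.40 in normal glands 1 and 3. That of 10 differentiated epidermis markers was 3.90 against -0.65 and -0.58, and that of 12 luminal epithelium markers was -1.89 against -0.40 and -0.20. All 12 luminal and all 10 measured basal epithelium markers lay above the filter and no marker of any list had a value of 0. Calls against normal gland, and most other differences from it, are therefore printed with and without this array.

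Against normal gland, Nid1, Itga7, Itga11 and Dst fell in each tumour group, and Agrn, Itga3, Itgav, Itgb8, Itga8 and Itgb4 rose in 1 of the groups. In non-metastatic tumours 2 of 37 members rose, 5 fell and 30 were not called, where 11.2% of all genes tested rose and 7.60% fell. The members' shares were 5.41% higher and 13.5% lower, and their median change was -0.04 beside 0.05 over all genes. In metastatic tumours 4 members rose and 4 fell, which is 10.8% each way, beside 7.35% of all genes higher and 6.00% lower, with medians of 0.34 and 0.04. Over all 6 tumours 7 members (18.9%) rose and 5 (13.5%) fell, beside 13.6% and 9.13% of all genes, with medians of 0.20 and 0.04. These shares lay near the background, and nothing about the members as a whole is read from them. The 3 comparisons share the same normal glands and are not independent of each other.

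Many of the calls were lost when 1 array was left out. Some changes hardly moved then, as Itga11 in non-metastatic tumours went from -1.57 to -1.58 without normal gland 2. Leaving out normal gland 2, 2 of 37 members (5.41%) were called in non-metastatic tumours beside 8.68% of all genes, 1 (2.70%) in metastatic tumours beside 4.93%, and 5 (13.5%) over all tumours beside 10.9%. Losses of calls were not particular to that array. Without normal gland 1 instead, 2, 0 and 6 members were called, beside 7.70%, 4.54% and 11.4% of all genes. The scaling moved the split as well: median centring gave 5 members higher and 4 lower in the non-metastatic group, 5 and 4 in the metastatic group and 8 and 4 for all tumours, beside 22.8%, 14.7% and 26.2% of all genes called either way. Quantile normalisation gave 1 and 5, 1 and 4, and 4 and 6, beside 16.1%, 11.6% and 21.0%. No called member changed sign in any alternative. The changes of all members in each tumour group are drawn beside each other in the plot of changes from normal gland.

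**Figure D1:**
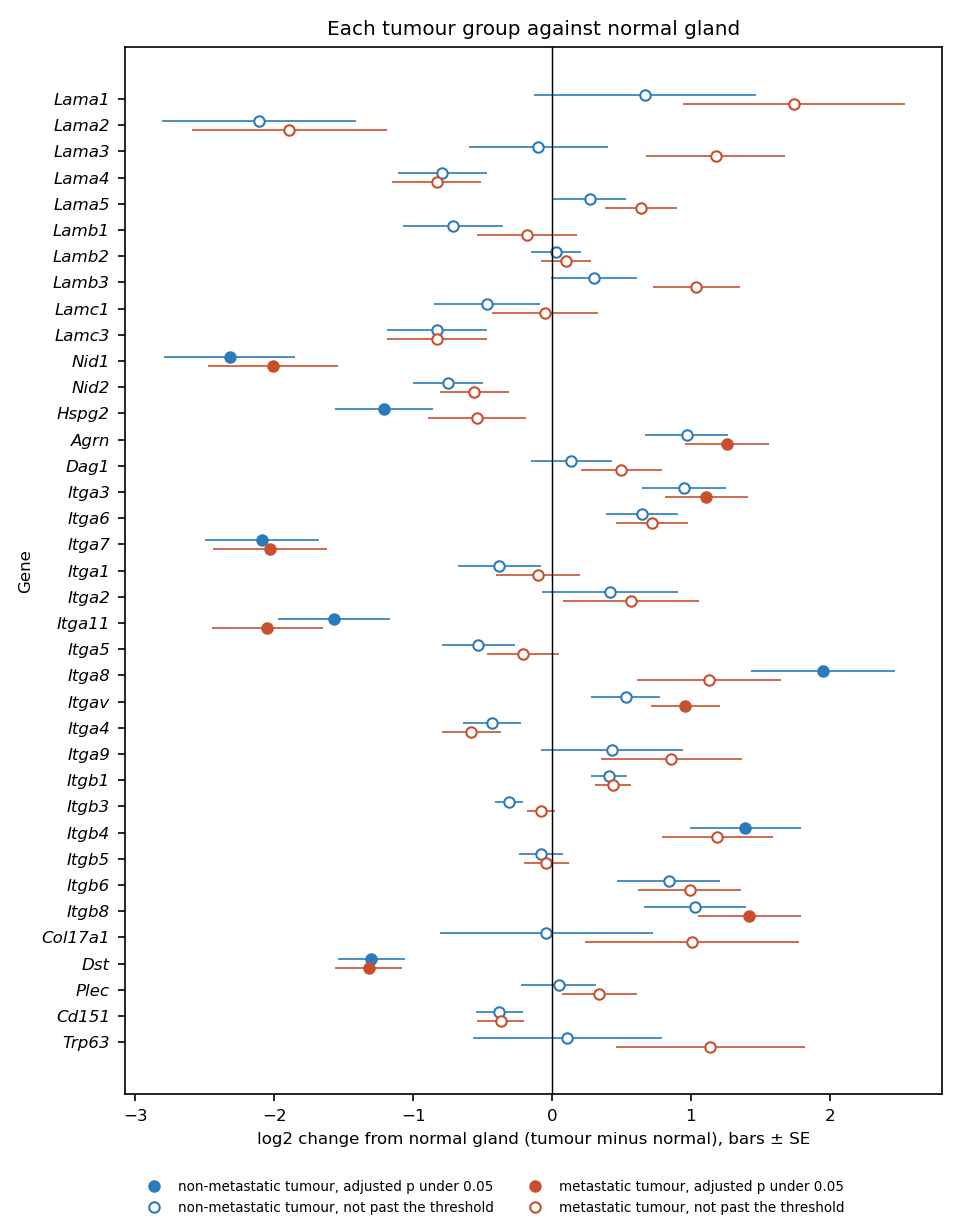
Log2 change from normal gland (x axis, tumour minus normal) for the 37 genes (y axis, ordered by role), with blue for non-metastatic and red for metastatic tumours, bars for the SE, and filled points for an adjusted p under 0.05. Nid1, Itga7, Itga11 and Dst are filled in both colours on the left, and Itga8, Itgb4, Agrn, Itga3, Itgav and Itgb8 are filled in 1 colour on the right.

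The 4 genes that fell in each comparison with normal gland are shown with the 250 bases upstream of their RefSeq start sites (build GRCm38.p6). They were chosen by these calls alone, and whether they vary together or share regulation was not tested. Itga7 is named only. Promoters were searched on both strands for the GC box GGGCGG, the CCAAT box CCAAT, the TCF/LEF motif as ATCAAAG or TTCAAAG, and the TATA box TATAAA. Capitals mark every match, and no match overlapped another. Dst is shown with 2 start sites.

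Nid1, chr13:13437352-13437601, plus strand: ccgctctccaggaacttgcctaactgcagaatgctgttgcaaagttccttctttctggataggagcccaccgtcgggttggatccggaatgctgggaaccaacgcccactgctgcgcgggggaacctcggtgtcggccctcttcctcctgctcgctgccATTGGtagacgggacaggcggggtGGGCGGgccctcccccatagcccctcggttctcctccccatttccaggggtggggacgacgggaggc
Itga11, chr9:62677605-62677854, plus strand: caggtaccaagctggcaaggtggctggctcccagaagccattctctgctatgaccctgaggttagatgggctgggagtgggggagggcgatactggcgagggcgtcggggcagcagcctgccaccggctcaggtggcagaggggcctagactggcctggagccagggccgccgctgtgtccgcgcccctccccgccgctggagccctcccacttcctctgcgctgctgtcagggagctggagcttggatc
Dst, start 1, chr1:34011345-34011594, plus strand: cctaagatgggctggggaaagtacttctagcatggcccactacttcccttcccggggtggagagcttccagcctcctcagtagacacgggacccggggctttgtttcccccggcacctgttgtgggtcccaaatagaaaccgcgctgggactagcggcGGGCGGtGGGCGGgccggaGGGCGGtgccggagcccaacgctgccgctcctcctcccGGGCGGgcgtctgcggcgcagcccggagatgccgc
Dst, start 2, chr1:34160010-34160259, plus strand: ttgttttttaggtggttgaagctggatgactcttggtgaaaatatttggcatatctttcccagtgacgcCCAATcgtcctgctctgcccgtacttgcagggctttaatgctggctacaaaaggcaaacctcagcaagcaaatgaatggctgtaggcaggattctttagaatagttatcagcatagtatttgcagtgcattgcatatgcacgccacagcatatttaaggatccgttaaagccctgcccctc

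The Nid1 window holds 1 GC box, from 67 to 62 bases upstream, and 1 CCAAT box on the minus strand, from 91 to 87 bases upstream. The window of Dst start 1 holds 4 GC boxes and is 68.8% G and C, while that of Dst start 2 holds 1 CCAAT box, from 181 to 177 bases upstream, and is 45.2% G and C. None of these letters stands in the Itga11 window, which is 68.4% G and C. Over the 32851 mouse promoters of the table, 32.7% of windows held a GC box, 33.8% a CCAAT box, 7.48% a TCF/LEF motif and 12.4% a TATA box. Of the 32 windows of the 25 members with an entry, 16, 8, 1 and 1 held these motifs, in 13, 7, 1 and 1 genes. A match is a description of the sequence and no evidence of a bound factor.

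Among the laminin alpha chains, Lama2 was lower in tumours, and the other 4 were not called. Lama2, the alpha2 chain of muscle, nerve and stromal basement membranes, was 9.81, 9.66 and 9.78 in normal glands 1, 2 and 3. It was 7.48, 6.41 and 9.02 in the non-metastatic and 8.38, 8.60 and 6.59 in the metastatic tumours. All 6 tumours lay below all normal glands, and the tumours spread widely while the normal glands did not. Over all tumours Lama2 fell by 2.00 (SE 0.61, adjusted p = 0.047), with -2.05 and adjusted p = 0.12 when normal gland 2 was left out. The call held only without non-metastatic tumour 3 or metastatic tumour 2, and otherwise leaving out an array gave adjusted p up to 0.13. In the separate groups the change was -2.11 (SE 0.70, adjusted p = 0.069) and -1.89 (SE 0.70, adjusted p = 0.11), or -2.16 and -1.94 with normal gland 2 left out.

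The fibroblast score, like Lama2, was lower in every tumour than in every normal gland, and the relation of the 2 was not tested. It lay between 1.26 and 1.37 in normal glands, at -0.54, -2.75 and 0.61 in non-metastatic tumours and at 0.01, 0.15 and -1.42 in metastatic tumours, so the same 2 tumours were lowest for both. The summed level of the 9 fibroblast markers ran from 14.31 to 14.60 in normal glands, 10.62 to 13.68 in non-metastatic and 12.62 to 13.32 in metastatic tumours (log2), with 2 and 1 of 9 markers called lower. The 9 measured adipocyte markers were all called lower in each tumour group, and their summed level ran from 14.81 to 15.58 in normal glands, 10.77 to 12.14 in non-metastatic and 11.31 to 11.48 in metastatic tumours. Of 11 endothelial markers 5 and 3 were called lower, with summed levels of 12.58 to 12.91, 11.13 to 12.13 and 11.58 to 12.54. In such pieces of tissue, fewer cells of a type and less RNA per cell cannot be told apart, and the part of these cell types in the falls of the members was not tested.

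Lama1, Lama3 and Lama5 had positive differences over all tumours and Lama4 a negative one, none past the threshold. Lama1, the alpha1 chain of early and epithelial basement membranes, was 7.94, 6.23 and 8.92 in normal glands, 7.25, 8.11 and 9.76 in non-metastatic and 9.49, 8.78 and 10.05 in metastatic tumours. The groups overlapped, and normal gland 2 was the lowest array. The difference over all tumours was 1.21 (SE 0.69, adjusted p = 0.25) with normal gland 2 and 0.47 (adjusted p = 0.69) without it. In non-metastatic tumours it turned from 0.67 to -0.06 and in metastatic tumours it went from 1.74 to 1.00. Lama4, the alpha4 chain of vessel walls, averaged 10.18 ± 0.44 in normal glands, 9.39 ± 0.46 in non-metastatic and 9.35 ± 0.43 in metastatic tumours. Its difference over all tumours was -0.81 (SE 0.28, adjusted p = 0.070), or -0.59 (0.25) without normal gland 2. Lama5, the broadly expressed epithelial alpha5 chain, averaged 8.18 ± 0.30, 8.46 ± 0.33 and 8.82 ± 0.41 in the same order.

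No laminin beta or gamma chain was called against normal gland. Lamb1, a widely used beta chain, averaged 10.15 ± 0.13 in normal glands, 9.44 ± 0.83 in non-metastatic and 9.97 ± 0.26 in metastatic tumours. Lamb2, the beta chain of vessels and neuromuscular junctions, stayed between 8.48 and 9.03 on all 9 arrays. Lamc1, the gamma chain of most laminins, averaged 10.58 ± 0.19, 10.10 ± 0.87 and 10.53 ± 0.24, where the spread in non-metastatic tumours came from values of 9.54, 9.67 and 11.10. Lamc3 averaged 7.09 ± 0.59, 6.26 ± 0.44 and 6.26 ± 0.47, with a difference of -0.83 over all tumours (SE 0.31, adjusted p = 0.093), or -1.16 (0.052) without normal gland 2.

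The linkers of the basement membrane moved in both directions. Nid1, which bridges laminin and collagen IV, was 11.85, 12.04 and 11.39 in normal glands. It was 9.48, 8.41 and 10.43 in non-metastatic tumours and 9.52, 10.26 and 9.47 in metastatic tumours. Every tumour was lower than every normal gland. It fell by 2.32 in non-metastatic tumours (SE 0.47, adjusted p = 0.016), a 4.98-fold difference, and by 2.01 in metastatic tumours (SE 0.47, adjusted p = 0.032). The call in non-metastatic tumours was lost without normal gland 1 (adjusted p = 0.055) or normal gland 2 (-2.18, adjusted p = 0.054). In metastatic tumours it held in 4 of 9 fits with 1 array left out, and failed without normal gland 1 (adjusted p = 0.090), normal gland 2 (-1.87, 0.099) or any of the metastatic tumours (0.10, 0.051 and 0.10). Over all tumours the fall of 2.16 (SE 0.41, adjusted p = 0.0096) held with each of the 9 arrays left out, with -2.02 and adjusted p = 0.044 without normal gland 2. A second Nid1 probe set averaged 11.03, 8.88 and 9.20 in the same groups.

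Its relative Nid2 averaged 8.61 ± 0.15 in normal glands, 7.86 ± 0.29 in non-metastatic and 8.05 ± 0.47 in metastatic tumours, and was not called (-0.75 in the non-metastatic group, SE 0.25, adjusted p = 0.068, or -0.80 without normal gland 2). Hspg2, which encodes the proteoglycan perlecan, was 10.12, 10.28 and 10.10 in normal glands, 8.58, 8.51 and 9.77 in non-metastatic and 9.16, 10.04 and 9.68 in metastatic tumours. Every tumour lay below the normal glands, with non-metastatic tumour 3 and metastatic tumour 2 close to them. Hspg2 fell by 1.21 in non-metastatic tumours (SE 0.35, adjusted p = 0.046). This call held only without non-metastatic tumour 3, with adjusted p = 0.13 without normal gland 2 and up to 0.14 otherwise. In metastatic tumours the change was -0.54 (SE 0.35, adjusted p = 0.34), and -0.48 without normal gland 2.

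Agrn rose in metastatic tumours. It encodes agrin, a proteoglycan that binds laminin and dystroglycan, and was 8.88, 8.42 and 9.12 in normal glands, 9.66, 9.32 and 10.35 in non-metastatic and 9.73, 10.41 and 10.05 in metastatic tumours. All tumours were above all normal glands. The rise was 1.26 in metastatic tumours (SE 0.30, adjusted p = 0.034), and 1.06 with adjusted p = 0.10 without normal gland 2. It was also lost without normal gland 1 (0.084) and without metastatic tumour 1, 2 or 3 (0.063, 0.092 and 0.094). Over all tumours it rose by 1.11 (SE 0.26, adjusted p = 0.020), a call lost only without normal gland 1 (0.063) or normal gland 2 (0.92, adjusted p = 0.085), and in non-metastatic tumours the difference was 0.97 (SE 0.30, adjusted p = 0.058), with 0.77 when normal gland 2 was left out. Dag1, which encodes both chains of the laminin receptor dystroglycan, averaged 10.82 ± 0.07, 10.96 ± 0.48 and 11.32 ± 0.47 and was not called.

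**Figure D2:**
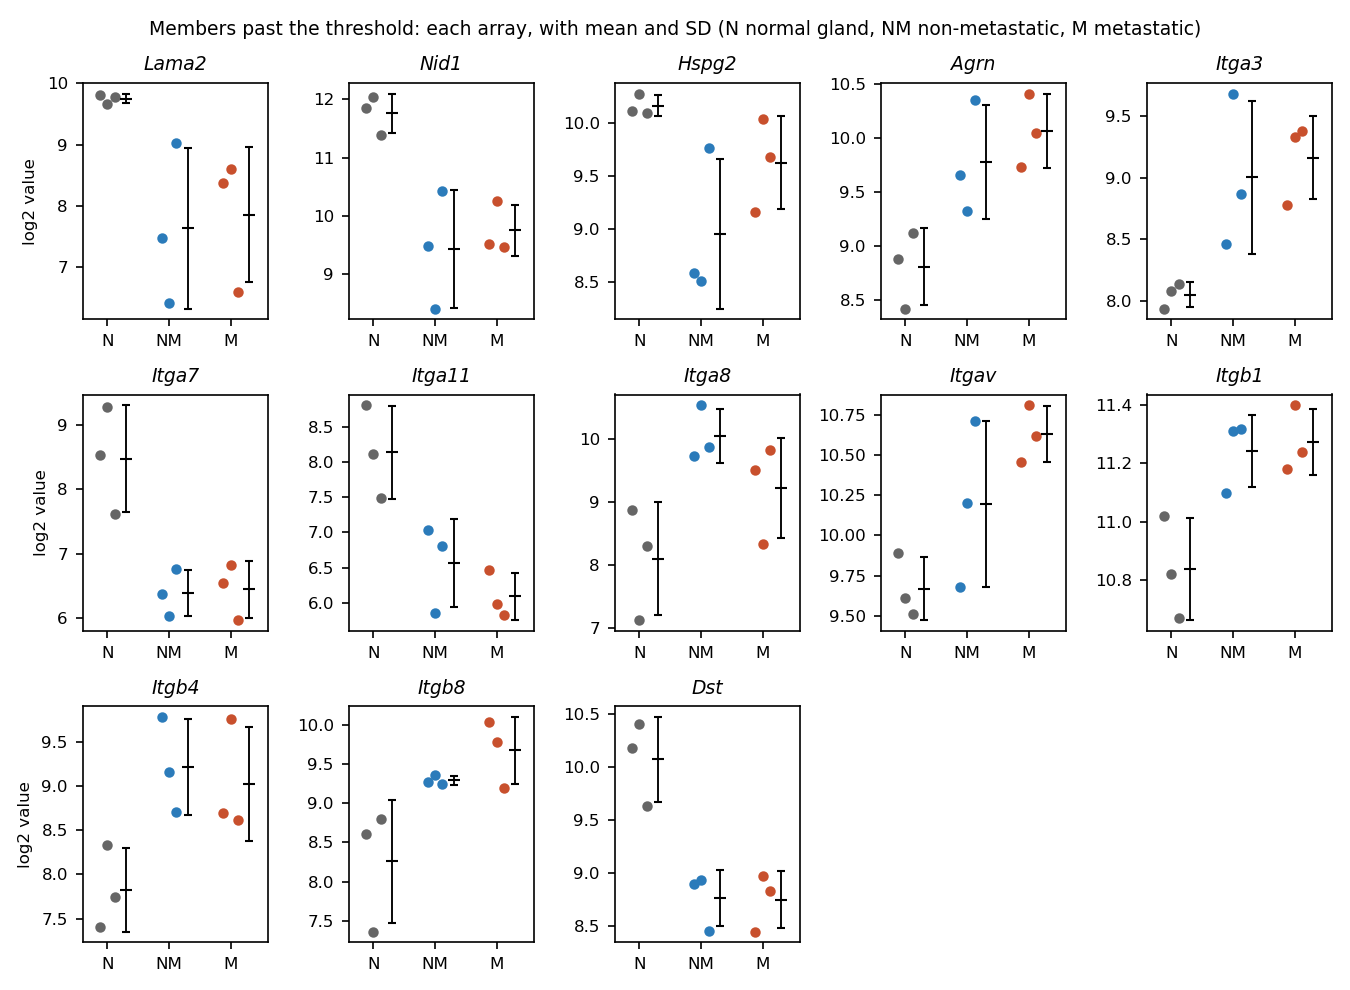
Log2 value (y axis, its range set per gene) of the 13 genes called in any comparison with normal gland, by group (x axis: N normal gland, NM non-metastatic tumour, M metastatic tumour), with a point per array and the mean ± SD beside it. Nid1, Itga7, Itga11 and Dst lie lower in all 6 tumours than in all 3 normal glands, while in Itga8 and Itgav a tumour lies within the range of the normal glands.

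Among the alpha chains of laminin-binding integrins, Itga7 fell and Itga3 rose, and Itga6 was not called. Itga7, the laminin receptor of muscle cells, was 8.53, 9.28 and 7.62 in normal glands, 6.37, 6.04 and 6.76 in non-metastatic and 6.55, 6.83 and 5.97 in metastatic tumours. No tumour reached the lowest normal gland, and normal gland 2 was highest. The summed level of the 11 muscle markers was 13.72 in that array and at most 10.01 in the other normal glands. It ran from 9.60 to 11.75 in non-metastatic and from 9.53 to 9.90 in metastatic tumours. In either group 0 of 11 were called, with median changes of -0.49 in non-metastatic and -1.34 in metastatic tumours. The part of muscle in the Itga7 values was not tested. Itga7 fell by 2.09 in non-metastatic tumours (SE 0.41, adjusted p = 0.015), a 4.25-fold difference, and by 2.03 in metastatic tumours (SE 0.41, adjusted p = 0.022). Leaving out normal gland 2 gave -1.69 (adjusted p = 0.037) and -1.63 (0.052). The former call was lost without normal gland 1 or non-metastatic tumour 2 (adjusted p = 0.052 each), and the latter also without normal gland 1, metastatic tumour 1 or metastatic tumour 3 (0.068, 0.066 and 0.074). Over all tumours the fall of 2.06 (SE 0.36, adjusted p = 0.0076) held with each array left out, and was -1.66 (0.026) without normal gland 2.

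Itga3, which pairs with beta1 to bind laminins of epithelia, was 7.94, 8.08 and 8.14 in normal glands, 8.46, 9.68 and 8.87 in non-metastatic and 8.78, 9.33 and 9.38 in metastatic tumours. The normal glands lay close together below all tumours. It rose by 1.11 in metastatic tumours (SE 0.30, adjusted p = 0.046) and by 1.03 over all tumours (SE 0.26, adjusted p = 0.025), with 0.95 in non-metastatic tumours (SE 0.30, adjusted p = 0.058, and 0.96 without normal gland 2). In metastatic tumours the call held only without non-metastatic tumour 1 or 2 (adjusted p up to 0.14, and 1.12 with 0.11 without normal gland 2). Over all tumours it was lost without normal gland 1 (0.089), normal gland 2 (1.04, 0.079) or metastatic tumour 3 (0.054). Itga6, the alpha chain of the hemidesmosome, was 10.38, 9.84 and 10.94 in normal glands and between 10.90 and 11.34 in the tumours, where it varied little (SD 0.17 over 6 tumours). Normal gland 2 was its lowest array. The difference over all tumours was 0.69 (SE 0.22, adjusted p = 0.058), and 0.41 (0.18) without that array.

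Of the alpha chains of collagen-binding integrins, Itga11 fell and Itga1 and Itga2 were not called. Itga11, the collagen receptor of fibroblasts, was 8.81, 8.12 and 7.49 in normal glands, 7.04, 5.86 and 6.81 in non-metastatic and 6.47, 5.98 and 5.82 in metastatic tumours. All tumours were below all normal glands, although normal gland 3 and non-metastatic tumour 1 were near each other. Itga11 fell by 1.57 in the non-metastatic group (SE 0.40, adjusted p = 0.031) and by 2.05 in the metastatic group (SE 0.40, adjusted p = 0.019). Leaving normal gland 2 out turned these into -1.58 (0.084) and -2.06 (0.056). The call in non-metastatic tumours was also lost without normal gland 1 (0.091), non-metastatic tumour 2 (-1.22, 0.086) or 3 (0.052), and that in metastatic tumours without normal gland 1 (0.056), metastatic tumour 2 (0.055) or 3 (0.070). Over all tumours -1.81 (SE 0.35, adjusted p = 0.010) held with each array left out, and was -1.82 (0.040) without normal gland 2. Itga1 averaged 8.88 ± 0.26, 8.50 ± 0.54 and 8.78 ± 0.37, and Itga2 8.68 ± 0.69, 9.10 ± 0.80 and 9.24 ± 0.55, in normal glands, non-metastatic and metastatic tumours.

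The alpha chains that recognise the RGD peptide of fibronectin and related ligands are Itga5, Itga8 and Itgav. Itga8, which pairs with beta1 and binds nephronectin, was 8.88, 7.12 and 8.30 in normal glands, 9.74, 10.54 and 9.88 in non-metastatic and 9.51, 8.33 and 9.83 in metastatic tumours. Normal gland 2 was the lowest array, and metastatic tumour 2 lay within the range of the normal glands. It rose by 1.95 in non-metastatic tumours (SE 0.52, adjusted p = 0.036), a 3.87-fold difference. In metastatic tumours the difference was 1.13 (SE 0.52, adjusted p = 0.19), and 0.63 (0.46) without normal gland 2. The rise in non-metastatic tumours was 1.46 (adjusted p = 0.096) without normal gland 2. That call held only without normal gland 1, metastatic tumour 2 or metastatic tumour 3, with adjusted p up to 0.11 otherwise. The rise of 1.54 over all tumours (SE 0.45, adjusted p = 0.042) was 1.05 without normal gland 2 (0.15) and 0.99 with array weights, and held only without normal gland 1 or metastatic tumour 2.

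Itgav, the alpha chain that pairs with beta3, beta5, beta6 and beta8 among others, was 9.89, 9.61 and 9.51 in normal glands, 9.68, 10.20 and 10.71 in non-metastatic and 10.46, 10.81 and 10.62 in metastatic tumours. Non-metastatic tumour 1 lay among the normal glands and the other 5 tumours above them. It rose by 0.96 in metastatic tumours (SE 0.25, adjusted p = 0.041), 0.93 with adjusted p = 0.11 without normal gland 2. The call held only without non-metastatic tumour 1 or 3, with adjusted p up to 0.11. In non-metastatic tumours the difference was 0.53 (SE 0.25, adjusted p = 0.17). Over all tumours the rise of 0.75 (SE 0.21, adjusted p = 0.040) was 0.71 without normal gland 2 (0.12) and held only without non-metastatic tumour 1 or 3. A second Itgav probe set lay between 4.48 and 4.71 on all arrays, and with the mean of both probe sets the change was 0.46 in metastatic and 0.35 over all tumours. Itga5, the fibronectin receptor chain, averaged 7.84 ± 0.24, 7.31 ± 0.46 and 7.63 ± 0.30 and was not called.

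Itga4 and Itga9, related chains that bind fibronectin and tenascin among other ligands, were not called. Itga4, typical of leukocytes, averaged 7.17 ± 0.14 in normal glands, 6.73 ± 0.40 in non-metastatic and 6.59 ± 0.24 in metastatic tumours. Itga9 was 7.41, 7.41 and 7.30 in normal glands, 7.37, 7.08 and 8.95 in non-metastatic and 7.51, 8.98 and 8.21 in metastatic tumours. Non-metastatic tumour 3 and metastatic tumour 2 thus lay far above all normal glands, while non-metastatic tumour 1 lay within their range and non-metastatic tumour 2 below it.

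Among the beta chains, Itgb1, Itgb4 and Itgb8 rose over all tumours and Itgb3, Itgb5 and Itgb6 were not called. Itgb4, the beta chain of the hemidesmosomal laminin receptor, was 7.40, 8.33 and 7.74 in normal glands, 9.78, 9.16 and 8.70 in non-metastatic and 8.69, 9.76 and 8.61 in metastatic tumours. Every tumour was above every normal gland, while the tumour groups overlapped. It rose by 1.39 in non-metastatic tumours (SE 0.40, adjusted p = 0.046), a 2.61-fold difference. In metastatic tumours the difference was 1.19 (SE 0.40, adjusted p = 0.084), and 1.45 (0.097) without normal gland 2. The rise in non-metastatic tumours was 1.64 (adjusted p = 0.057) without normal gland 2, and the call held only without non-metastatic tumour 3 or metastatic tumour 2, with adjusted p up to 0.14. Over all tumours the rise of 1.29 (SE 0.34, adjusted p = 0.031) was 1.54 without normal gland 2 (0.045) and was lost without normal gland 1 (0.12), normal gland 3 (0.077) or non-metastatic tumour 2 (0.056). Another probe set, which carries Itgb4 with a second symbol, was not used. That probe set averaged 5.56 in normal glands, 5.72 in non-metastatic and 5.75 in metastatic tumours. The luminal score was lower in normal glands (-1.89 to -0.20) than in the non-metastatic (0.28 to 0.63) and the metastatic tumours (-0.04 to 0.58). Of the 12 luminal markers 5 and 4 were called higher in these groups, with summed levels of 12.22 to 13.82 in normal glands, 14.26 to 14.49 and 14.19 to 14.49 in tumours, and its part in the rises of epithelial members was not tested.

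Itgb8, which with alphav activates latent TGF-beta, was 8.61, 7.36 and 8.80 in normal glands, 9.27, 9.36 and 9.24 in non-metastatic and 10.04, 9.78 and 9.20 in metastatic tumours. All tumours were above the normal glands, of which normal gland 2 was by far the lowest. It rose by 1.42 in metastatic tumours (SE 0.37, adjusted p = 0.042), but by 0.97 with adjusted p = 0.061 without normal gland 2, and the call held only without normal gland 3. In non-metastatic tumours the difference was 1.03 (SE 0.37, adjusted p = 0.088). Over all tumours the rise of 1.23 (SE 0.32, adjusted p = 0.029) was 0.78 without normal gland 2 (0.057) and was also lost without normal gland 1 (0.056), non-metastatic tumour 2 (0.056), metastatic tumour 1 (0.061) or metastatic tumour 2 (0.054).

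Itgb1, the partner of most alpha chains here, was 11.02, 10.82 and 10.67 in normal glands, 11.10, 11.31 and 11.32 in non-metastatic and 11.18, 11.40 and 11.24 in metastatic tumours. Every tumour was above every normal gland by a small margin. It rose by 0.42 over all tumours (SE 0.11, adjusted p = 0.027), 0.41 without normal gland 2 (0.088) and 0.26 with array weights. The call was also lost without normal gland 3 (0.34, adjusted p = 0.075), non-metastatic tumour 2 (0.053), metastatic tumour 2 (0.052) or metastatic tumour 3 (0.054). Itgb6, a beta chain of epithelia that also activates TGF-beta, averaged 6.20 ± 0.16, 7.05 ± 0.38 and 7.19 ± 0.79, with all tumours above all normal glands and a difference of 0.91 (SE 0.32, adjusted p = 0.074, and 0.87 without normal gland 2). Itgb3, of platelets and new vessels, averaged 7.70 ± 0.11, 7.39 ± 0.08 and 7.62 ± 0.08. Itgb5, the vitronectin receptor chain, stayed between 9.59 and 10.10 on all arrays.

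In the hemidesmosome, Dst fell in the 3 comparisons with normal gland and Col17a1, Plec and Cd151 were not called. Dst encodes dystonin, whose epithelial form links hemidesmosomes to keratin and whose other forms serve nerve and muscle, and the probe set does not tell them apart here. It was 10.18, 10.41 and 9.63 in normal glands, 8.90, 8.94 and 8.46 in non-metastatic and 8.45, 8.97 and 8.83 in metastatic tumours. The lowest normal gland was well above the highest tumour. Dst fell by 1.30 in non-metastatic tumours (SE 0.24, adjusted p = 0.012) and by 1.32 in metastatic tumours (SE 0.24, adjusted p = 0.015), which are 2.47-fold and 2.50-fold differences. The values were -1.14 (0.037) and -1.16 (0.045) without normal gland 2. The call in non-metastatic tumours held with each array left out, and that in metastatic tumours was lost without normal gland 1 (0.054) or metastatic tumour 1 (0.055). Over all tumours the change was -1.31 (SE 0.20, adjusted p = 0.0055), with -1.15 (0.024) without normal gland 2, and it held with each array left out.

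Col17a1, the transmembrane collagen of the hemidesmosome, was 7.63, 9.68 and 7.40 in normal glands, 6.93, 8.18 and 9.48 in non-metastatic and 8.93, 9.99 and 8.81 in metastatic tumours. Normal gland 2 was far above the other normal glands, and the groups overlapped. The summed level of the epidermis markers was also highest there, with 8.70 to 14.09 in normal glands, 8.75 to 9.95 in non-metastatic and 8.74 to 9.12 in metastatic tumours, and its part in the Col17a1 values was not tested. Plec, the plectin that ties beta4 to keratin, averaged 8.47 ± 0.38, 8.52 ± 0.37 and 8.81 ± 0.37. Cd151, a tetraspanin partner of laminin-binding integrins, averaged 10.94 ± 0.28, 10.56 ± 0.17 and 10.57 ± 0.18, a difference of -0.38 over all tumours (SE 0.15, adjusted p = 0.10), or -0.27 without normal gland 2. Trp63, the transcription factor of basal epithelial cells whose known targets include hemidesmosome genes, was 8.12, 8.73 and 7.73 in normal glands, 6.53, 8.96 and 9.40 in non-metastatic and 8.93, 9.50 and 9.57 in metastatic tumours. Non-metastatic tumour 1 was by far the lowest array, and Trp63 was not called.

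**Figure D3:**
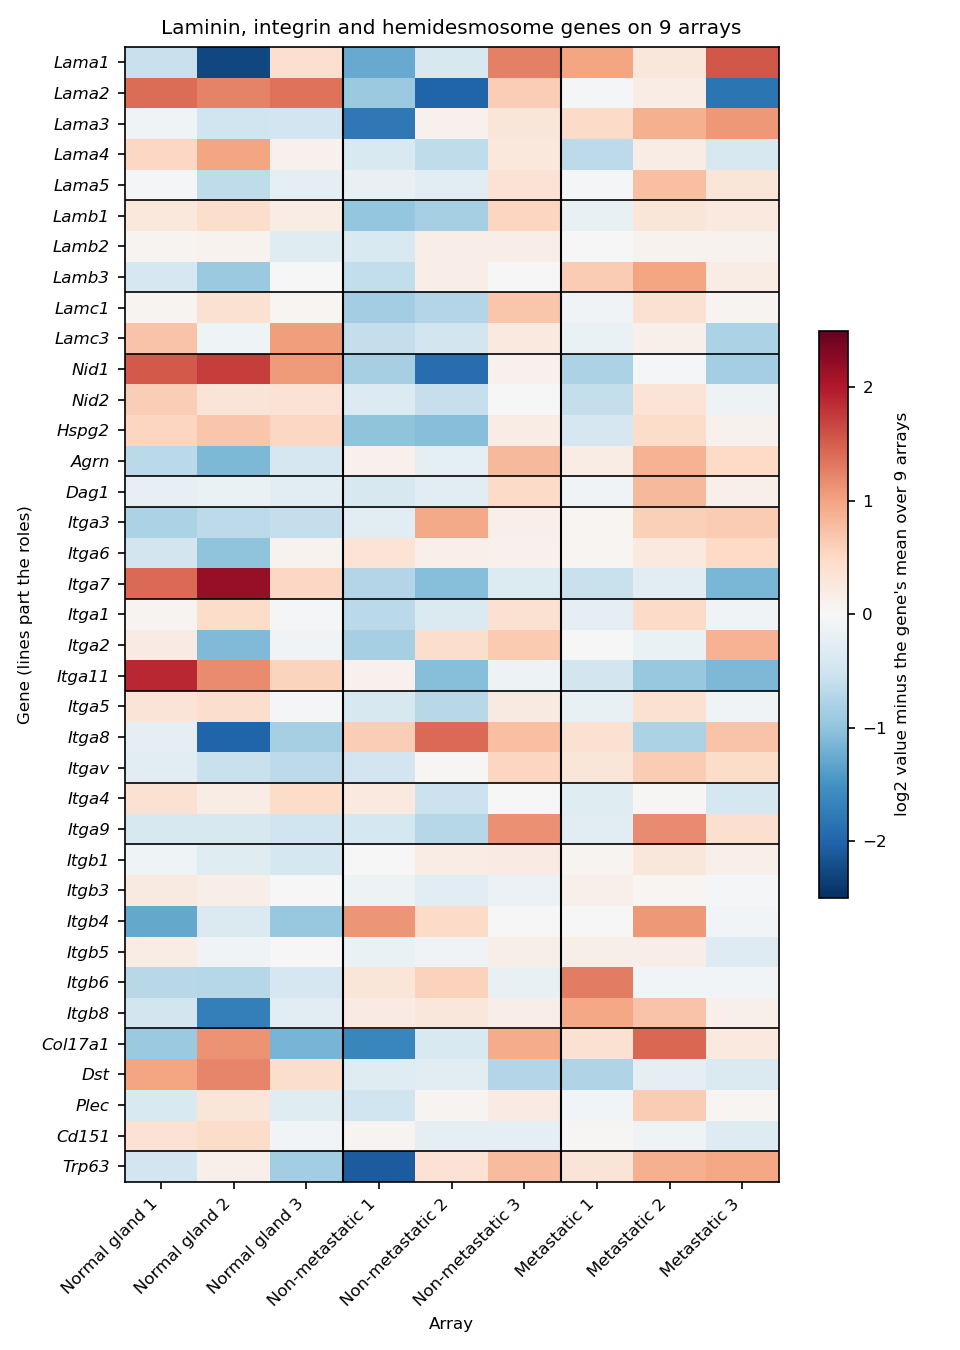
Deviation of each log2 value from the mean of its gene on the 9 arrays (colour, red above and blue below 0) for the 37 genes (rows, parted by role) on each array (columns, parted by group). Nid1 and Itga7 are red in all normal glands, and Col17a1 is red in normal gland 2 alone among them. Non-metastatic tumour 1 holds the lowest tumour value of 15 of the 37 genes, which was not counted over all genes.

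The metastatic and non-metastatic tumours were the comparison named in the title, and no member separated them past the threshold. With limma 0 of 37 members were called, beside 0.00572% of all genes, and 2 had an unadjusted p under 0.05 (Lama3 and Lamb3), where 5.07% of all genes did. The groups did not overlap for 3 members (8.11%), beside 10.3% of all genes. The difference (metastatic minus non-metastatic) was positive for 30 members and negative for 7, with a median of 0.23 beside -0.02 over all genes. That median moved with single tumours, to 0.42 without non-metastatic tumour 3, 0.14 without non-metastatic tumour 1, 0.16 without non-metastatic tumour 2 and 0.08 without metastatic tumour 2. Leaving out metastatic tumour 1 or 3 gave 0.35. The split of 30 and 7 was not counted over all genes, and members measured on the same tumours are not independent. Nothing about the members as a whole is read from the split or the median.

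Lama3 and Lamb3, the laminin alpha3 and beta3 chains of epithelial basement membranes, had non-overlapping groups. Lama3 was 6.97, 8.88 and 9.06 in non-metastatic and 9.25, 9.65 and 9.85 in metastatic tumours, with normal glands at 8.67, 8.26 and 8.28. The gap between the groups was small and non-metastatic tumour 1 was far below the rest. The difference was 1.28 (SE 0.50, 95% interval 0.13 to 2.43, adjusted p = 0.88), but 0.62 without non-metastatic tumour 1. Lamb3 was 7.93, 8.72 and 8.57 in non-metastatic and 9.18, 9.53 and 8.73 in metastatic tumours, with normal glands at 8.13, 7.63 and 8.56. Metastatic tumour 3 lay just above non-metastatic tumour 2, and the difference was 0.74 (SE 0.31, 95% interval 0.03 to 1.46, adjusted p = 0.88). Itgb3 was the third member without overlap, at 7.44, 7.29 and 7.43 against 7.70, 7.62 and 7.53, a difference of 0.23 (SE 0.10, adjusted p = 0.88).

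The members with wide intervals cannot be placed. The difference was 1.07 for Lama1 (95% interval -0.78 to 2.91), 1.05 for Col17a1 (-0.73 to 2.83) and 1.03 for Trp63 (-0.52 to 2.59), so for each of these a doubling and no change both lie inside the interval. Without non-metastatic tumour 1 they became 0.50, 0.42 and 0.15, and without non-metastatic tumour 3 they became 1.76, 1.69 and 1.58. Itga8 had the lowest difference, -0.83 (-2.02 to 0.37), which was -0.38 without metastatic tumour 2. The narrowest intervals were those of Itgb3 and Itgb1, the latter at 0.03 (-0.26 to 0.32), with Itgb5 at 0.03 (-0.33 to 0.40) and Cd151 at 0.01 (-0.38 to 0.40). Dst, lower in all tumours, differed by -0.02 between the tumour groups (-0.56 to 0.52), Nid1 by 0.31 (-0.77 to 1.39) and Itga7 by 0.06 (-0.89 to 1.01). Over the alternatives these ran from -0.17 to 0.13, from -0.20 to 0.80 and from -0.13 to 0.30. A p that misses the threshold does not show that the groups are alike.

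**Figure D4:**
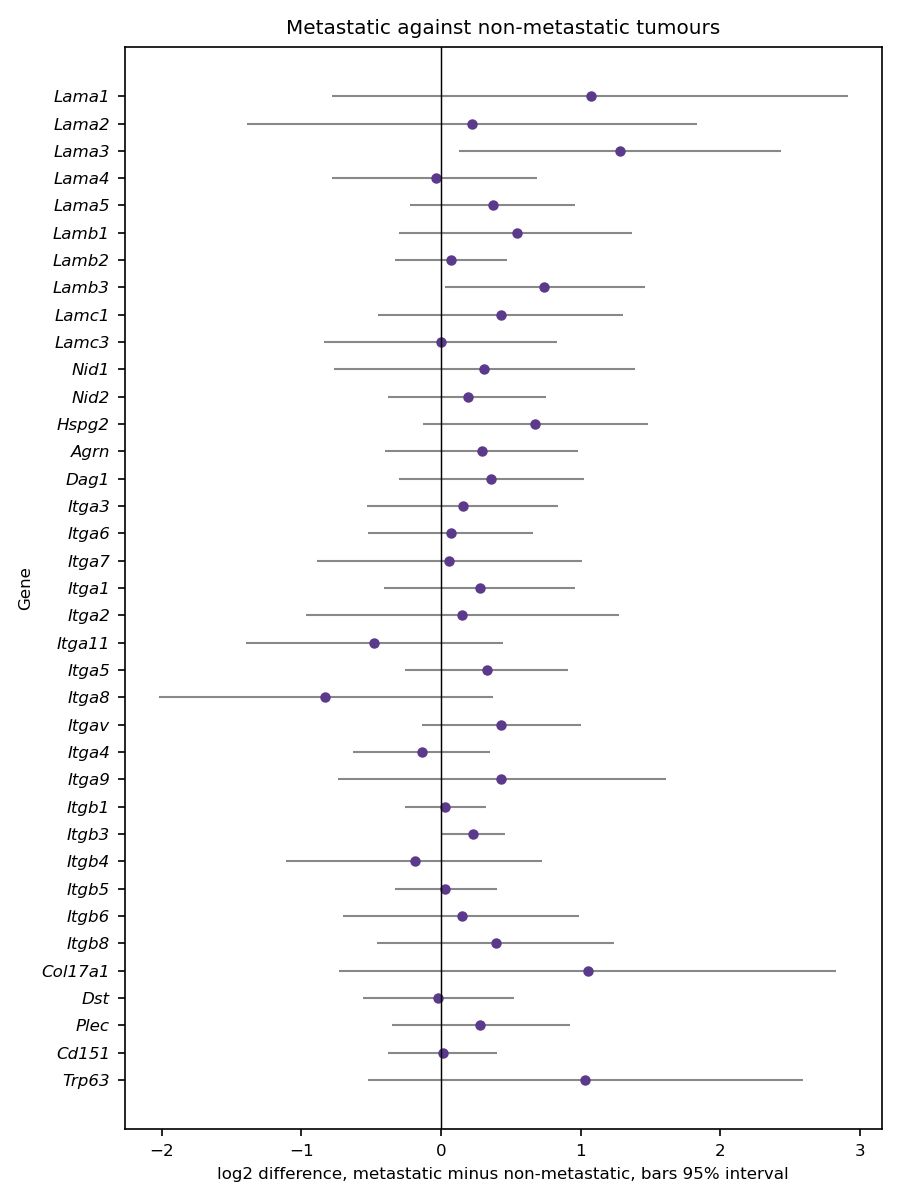
Log2 difference between metastatic and non-metastatic tumours (x axis, metastatic minus non-metastatic) for the 37 genes (y axis), with bars for the 95% interval of each gene alone. The intervals of Lama3 and Lamb3 lie to the right of 0 without adjustment for the number of genes, and those of Lama1, Col17a1 and Trp63 are among the widest.

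The basal epithelium and myoepithelium score was higher in the metastatic than in the non-metastatic tumours. It was -1.34, -1.13 and 0.26 in non-metastatic tumours and 0.65, 0.71 and 0.76 in metastatic tumours, with -0.05, -0.07 and 0.20 in normal glands. The summed level of its 10 measured markers ran from 11.68 to 13.39 in non-metastatic, 13.78 to 13.99 in metastatic tumours and 13.04 to 13.36 in normal glands, and 0 of 10 were called between the tumour groups. In the same order of tumours, Trp63 was 6.53, 8.96 and 9.40 in the non-metastatic and 8.93, 9.50 and 9.57 in the metastatic group. The part of this score in the differences of Lama3, Lamb3, Col17a1 and Trp63 was not tested. Among the 37 members, non-metastatic tumour 1 held the lowest tumour value of 15, non-metastatic tumour 2 of 9, and metastatic tumour 2 the highest of 16. The same was not counted over all genes, so nothing about the members as a whole is read from these counts.

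The members varied very unequally among the 6 tumours. The SD over tumours was 1.15 for Trp63, 1.09 for Lama2, 1.07 each for Lama1 and Col17a1 and 1.03 for Lama3, which places Trp63 at the 97.9th percentile of all genes tested. Itgb1 was at the other end, with an SD of 0.11 (17.9th percentile), followed by Itgb3 at 0.15 and Cd151 at 0.16. From the lowest to the highest tumour, Lama2, Lama1, Lama3, Trp63 and Col17a1 spanned 2.62 to 3.06, against 0.30 for the common beta1 chain.

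Genes whose products join in a dimer, a trimer or a junction, or a factor and its known targets, were compared over the 6 tumours in 17 pairs. None passed after Benjamini-Hochberg adjustment over the 17 pairs (lowest adjusted p = 0.094). The smallest p that 6 tumours allow (exact permutation test, two-sided) is near 0.0028 for rho without ties, and can be lower for Pearson's r. Lama2 and its receptor chain Itga7 had r = 0.97 (exact permutation p = 0.0056, adjusted p = 0.094) and rho = 0.89 (exact permutation p = 0.033, adjusted p = 0.28). Leaving out the 2 tumours farthest from the median of Lama2 gave r = 0.88. Trp63 and Col17a1 had r = 0.88 (exact permutation p = 0.029, adjusted p = 0.18) but rho = 0.54 (exact permutation p = 0.30, adjusted p = 0.50), with r = 0.89 in the remaining 4 tumours. Lama5 and Lamb1 had r = 0.85 (exact permutation p = 0.042, adjusted p = 0.18) and rho = 0.89 (exact permutation p = 0.033, adjusted p = 0.28), with r = 0.94 in the remaining 4.

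Lama3 and Lamb3 had r = 0.80 (exact permutation p = 0.054, adjusted p = 0.18) and rho = 0.77 (exact permutation p = 0.10, adjusted p = 0.50), with r = 0.92 after leaving out non-metastatic tumour 1 and metastatic tumour 3. Nid1 and Lamc1 had r = 0.82 (exact permutation p = 0.039, adjusted p = 0.18) and rho = 0.71 (exact permutation p = 0.14, adjusted p = 0.50), with r = 0.64 in the remaining 4. Itga6 and Itgb4, which form 1 receptor, had r = 0.13 (exact permutation p = 0.82, adjusted p = 0.82) and rho = 0.14 (exact permutation p = 0.80, adjusted p = 0.91). After leaving out non-metastatic tumour 1 and metastatic tumour 3, r was 0.93. Itga6 lay only between 10.90 and 11.08 in the remaining 4, too few and too close to show why r was low over all 6. The labels name no batch within which these values could be recomputed.

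**Figure D5:**
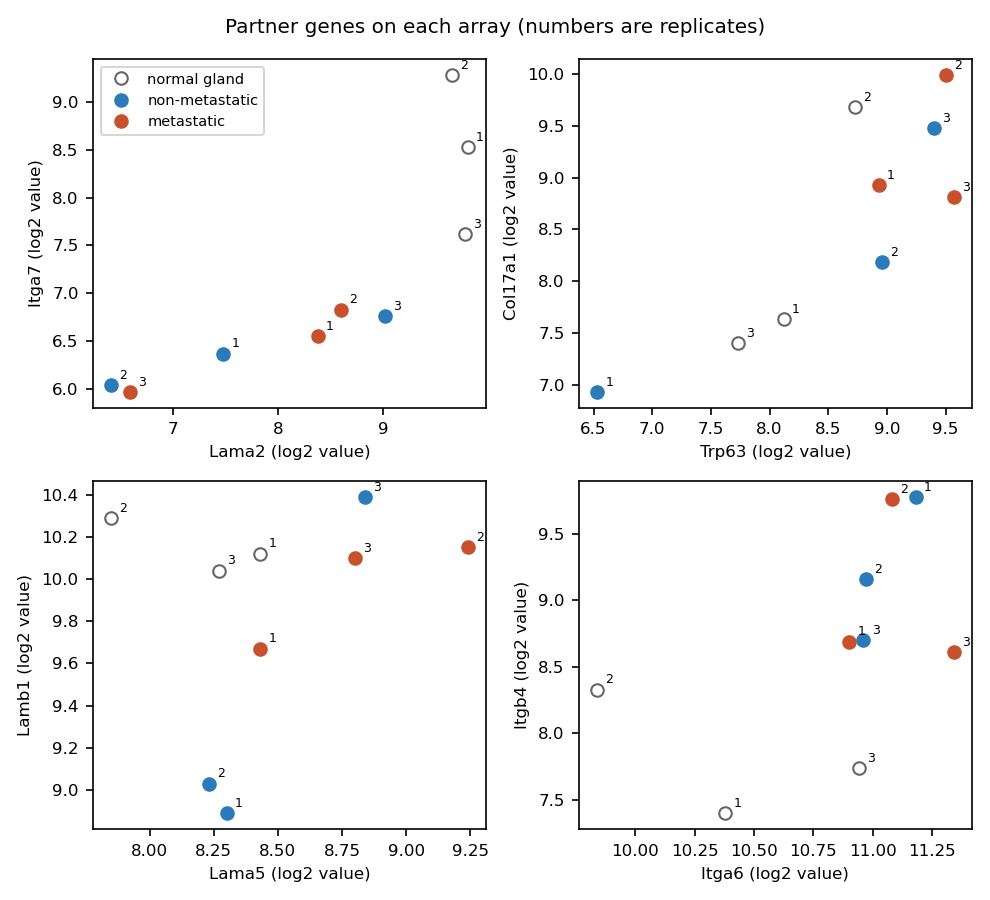
Log2 values of 4 pairs of partner genes on each array (x and y axes), with open points for normal glands, blue for non-metastatic and red for metastatic tumours, and replicate numbers beside the points. Lama2 and Itga7 rise together over the 6 tumours (r = 0.97), while Itga6 spans only 0.44 in the tumours and shows no such order with Itgb4 (r = 0.13).

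Other genes of the pathway were taken from lists, whose counts stand against the shares of all genes called: 11.2% rose and 7.60% fell in the non-metastatic group, 7.35% rose and 6.00% fell in the metastatic group. Of 23 further basement membrane genes 22 were tested, and in non-metastatic tumours 2 rose, 2 fell and 18 were not called. Col4a5, a collagen IV chain, rose by 1.04 (SE 0.23) and Tinagl1, a matrix glycoprotein, by 1.00 (SE 0.25), while Smoc1, a calcium-binding matrix protein, fell by 1.95 (SE 0.30) and Ntn4, a netrin that binds laminin, by 1.45 (SE 0.43). With normal gland 2 left out these were 0.76, 1.00, -1.74 and -1.29, and the calls of Tinagl1 and Ntn4 were lost. Col4a3, not called with that array (-0.36, adjusted p = 0.064), was called without it (-0.47, adjusted p = 0.039). In metastatic tumours 2 rose and 1 fell, with changes of 1.38 for Col4a5, 1.08 for Tinagl1 and -2.50 for Smoc1, or 1.10, 1.08 and -2.28 without normal gland 2, where the call of Tinagl1 was lost. These counts are near the shares of all genes. Between the tumour groups 0 were called, and Npnt, the nephronectin bound by the alpha8 chain, differed by -1.28 (SE 0.71, adjusted p = 0.88) and Egflam, which binds dystroglycan, by 1.12 (SE 0.76, adjusted p = 0.89).

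Inside the cell, 22 of 26 listed genes of the integrin adhesion complex were tested. In non-metastatic tumours Lims1, an adaptor of the integrin-linked kinase, rose by 0.48 (SE 0.12), and 3 genes fell, beside 11.2% and 7.60% of all genes. Tns1, a tensin that ties integrins to actin, fell by 3.04 (SE 0.49), its relative Tns2 by 1.68 (SE 0.34) and Itgb1bp1, which binds the beta1 tail, by 0.61 (SE 0.18). Leaving out normal gland 2 turned the 4 changes into 0.38, -2.75, -1.48 and -0.44, and Tns1 alone of these kept its call. Tns4, a tensin not called in this group (1.17, adjusted p = 0.10), was called without that array (1.69, adjusted p = 0.026). In metastatic tumours 3 rose and 3 fell, beside 7.35% and 6.00% of all genes. The changes were 2.01 for Tns4, a tensin of epithelia (SE 0.44), 0.90 for the actin crosslinker Actn1 (SE 0.20), -2.35 for Tns1 and -1.36 for Tns2, or 2.53, 0.85, -2.06 and -1.16 without normal gland 2, where Tns4 alone kept its call. Between tumour groups 0 were called, with Tns4 at 0.84 (SE 0.44, adjusted p = 0.88) and Tns1 at 0.68 (SE 0.49, adjusted p = 0.89).

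Among 12 of 14 other integrin ligands that were tested, 0 were called in non-metastatic tumours, where fibronectin (Fn1) differed by -1.84 (SE 0.57, adjusted p = 0.058) and tenascin C (Tnc) by 1.63 (SE 0.56, adjusted p = 0.077), or by -2.06 and 1.20 without normal gland 2. In metastatic tumours Ccn2, a matricellular protein, rose by 1.46 (SE 0.39) and Vtn, the vitronectin, fell by 1.28 (SE 0.32), and without normal gland 2 the values were 1.43 and -1.14. Of 7 tested leukocyte and platelet integrins (8 listed) Itgb7 fell by 0.90 (SE 0.19) in the non-metastatic and by 0.88 (SE 0.19) in the metastatic group, or -0.82 and -0.80 without normal gland 2. With that array left out, 0 genes of either list were called in either group. Between tumour groups 0 were called, with Tnc at -0.67, Vcam1 at 0.56, Itgae at -0.31 and Itgal at -0.29.

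Partners of laminin receptors and members of the dystroglycan complex were tested for 16 of 21 listed genes. In each tumour group 2 rose and 2 fell, beside the shares of all genes given above. Sgcd and Sgce, sarcoglycans of the complex around dystroglycan, fell by 2.35 (SE 0.47) and 2.05 (SE 0.51) in the non-metastatic group, and their changes in the metastatic group were -2.37 and -2.18. With normal gland 2 left out these were -1.80, -1.79, -1.82 and -1.92, and both calls of Sgce were lost. The tetraspanin Cd9 rose by 0.90 (SE 0.15) and 1.00 (SE 0.15), or 0.80 and 0.89 without that array, and remained called. Rpsa, a ribosomal protein also described as a laminin receptor, rose by 0.54 (SE 0.15) in the non-metastatic group and the tetraspanin Tspan1 by 0.69 (SE 0.17) in the metastatic group, with 0.38 and 0.68 and no call without normal gland 2. Between tumour groups 0 were called, with Bcam, a receptor of laminin alpha5, at 0.66 (SE 0.23) and Tspan1 at 0.65 (SE 0.17), each with adjusted p = 0.88.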

How the data were processed

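RNA of 9 frozen mammary tissues was hybridised to 9 arrays, 1 per mouse. The values deposited by the authors are log2 values of 41345 probe sets made with RMA, per the submitters' processing notes, which corrects background, equalises the arrays and summarises probes. The RMA version and genome build are not given in the sources used here, and the scanner files were not used here. Groups follow the sample titles. Of 22180 genes with a probe set of a single symbol, 17478 exceeded the 30th percentile of 3 or more arrays and 4702 were removed. For the 1082 genes with several probe sets, the probe set of highest mean was taken. A model with group means was fitted over the 9 arrays with limma 3.58.1 (lmFit, eBayes, 6 residual degrees of freedom, R 4.3.3), with 4 contrasts, two-sided tests and Benjamini-Hochberg adjustment over the 17478 genes. The fit was tested on simulated data. Replicates are separate mice per the labels. Correlations used exact permutation tests. Promoter sequences are from RefSeq (GRCm38.p6). The members and gene lists were chosen with earlier results of these data known. From each pathway list up to 4 called genes with the largest change were named, or the 2 with the largest change where none was called. The alternatives, 22 in number, were other filters (none, 50th percentile), the mean of probe sets, quantile normalisation, median centring, eBayes with trend or robust, array weights, the replicate number as a block, only the groups compared, age as a covariate between tumours, an adjusted p under 0.1, a log2 change of at least 1, and each array left out.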

Additional observations from a re-analysis of the deposited data

How the results depend on the processing

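Between the tumour groups, 0 members were called under each of the 22 alternatives. In non-metastatic tumours against normal gland, 7 members were called, 16 with array weights (30.7% of all genes), 3 with only the groups compared (8.77%), 14 at an adjusted p under 0.1 (28.2%), and 2 to 8 with each array left out (7.70% to 21.2% of all genes), the lowest without normal gland 1, normal gland 2 or non-metastatic tumour 2. In metastatic tumours 8 were called, 5 with quantile normalisation (11.6% of all genes), 22 with array weights (37.2%), and 0 to 9 with each array left out (3.59% to 16.2%): 0 without normal gland 1, 1 without normal gland 2, metastatic tumour 1 or metastatic tumour 3, and 2 without metastatic tumour 2. Over all tumours 12 were called, 23 with array weights (43.5% of all genes), 19 at an adjusted p under 0.1 (32.3%), and 5 to 16 with each array left out (10.9% to 23.6%): 5 without normal gland 2, 6 without normal gland 1 or non-metastatic tumour 2, and 7 without metastatic tumour 3. The cause was not tested. With the replicate number as a block, 5, 4 and 7 members were called in these comparisons (12.9%, 7.43% and 17.8% of all genes) and 0 between the tumour groups. The numbers name different mice, and the deviations of same-numbered arrays correlated at -0.28 to 0.17, so the numbers were not taken as pairs. Every called member kept its sign in all alternatives. Called in every alternative fit were Dst in non-metastatic tumours and Nid1, Itga7, Itga11 and Dst over all tumours, but no member in metastatic tumours. The number of arrays limits what could be detected.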
